A study of Bos taurus with 90 samples.

Results

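The miR-378 family of cattle was described here in 5 tissues of dairy cows through its 3 members with a row in the deposited files, miR-378, miR-378b and miR-378c, out of 388 miRNAs listed in any tissue and 289 listed in all 5. The members were found by name, and the family was selected on measured values, its high mean level in rumen relative to the other tissues, so the levels of the tissues and the ratios between members across tissues are given as a description without a test. Tissue samples came from mid-lactation Chinese Holstein dairy cows that were fed, as forage, rice straw, corn stover or alfalfa hay, and small RNA of 90 samples was sequenced, with 18 samples each from rumen epithelium, duodenum epithelium, jejunum epithelium, liver and mammary gland, and 6 per diet in every tissue. There was no unfed or reference diet among the groups, so rice straw was taken as the first diet of the contrasts only to give them a direction. The labels number the samples 1 to 6 within a tissue and diet, and p-values measure the spread between these samples.

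MicroRNAs are short RNAs that guide the silencing complex to partly complementary sites in messenger RNAs, and members of a family share the seed, the part of the miRNA that does most of the target recognition. The miR-378 precursor of mammals lies in an intron of PPARGC1B, the gene of the transcriptional coactivator PGC-1β, and miR-378 is known from studies of muscle, fat and liver for effects on mitochondrial energy use and lipid metabolism. The rumen epithelium is a keratinized stratified epithelium that takes up and metabolizes the short-chain fatty acids of fermentation, whereas duodenum and jejunum carry a columnar epithelium.

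In the RefSeq annotation of cattle (assembly ARS-UCD2.0), 5 genes carry the name, and they lie in different places. MIR378-1 lies within the span of PPARGC1B. MIR378-2 lies within CALCR, the gene of the calcitonin receptor, MIR378C within ZNF521, which encodes a zinc finger transcription factor, and MIR378D within MSI2, which encodes an RNA-binding protein, while no other gene spans MIR378B. The strand of these genes was not given. The files hold 3 names, and the values of miR-378 were not split between precursors. Values are CPM, the reads of a miRNA per 1000000 reads of the library that mapped to annotated miRNAs. The reads were aligned with mismatches and several mappings per read allowed, so reads of near-identical members could have been shared between rows, and the separate levels of the 3 members are uncertain to that extent.

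Mapped reads per library, recovered from the step of the CPM values, ranged from 937556 to 15621501, and 3 reads were worth at most 3.20 CPM. Tissue labels were read against marker miRNAs. The summed CPM of miR-205 and miR-31, markers of stratified epithelium, ranged from 25814 to 54759 in rumen. It reached at most 489 in duodenum, 2399 in liver and 9101 in mammary gland, while miR-203 of the same list was not listed. Jejunum listed only miR-31, at most at 478 CPM. In liver the hepatocyte marker miR-122 ranged from 8671 to 12721 CPM. No rumen, duodenum or jejunum library listed it, and mammary gland held at most 48.5 CPM. Duodenum and jejunum held the columnar markers miR-192, miR-194 and miR-215 at a summed CPM from 144396 to 411412, whereas rumen held at most 4561. These markers are not particular to intestine here, since liver held 122056 to 195995 CPM of them and overlapped with jejunum. The glandular markers miR-200a, miR-200b, miR-200c, miR-141 and miR-429 summed to between 10598 and 67448 CPM in mammary gland. They overlapped with rumen, at 12824 to 35851 CPM, and with duodenum, at 7520.1 to 16058 CPM, and came to at most 1896 CPM in liver, so they do not tell mammary gland from rumen. The striated muscle markers, among them miR-1 and miR-133a, came to a summed CPM of at most 145 in rumen, with miR-206, miR-208a and miR-208b not listed in any tissue. In bulk tissue, fewer cells of a type and less RNA per cell cannot be told apart.

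Ranked by mean CPM, miR-378 stood at place 5 in rumen, 19 in duodenum, 21 in jejunum, 58 in mammary gland and 49 in liver. In rumen its level ranged from 36043 to 81148 CPM with a median of 54125 and a mean of 55197 ± 13139.9 (SD, n = 18). In duodenum it ranged from 7753 to 14531 CPM with a mean of 9994 ± 1617 (SD, n = 18), and in jejunum from 5504 to 12054 CPM with a mean of 8847 ± 1767 (SD, n = 18). Mammary gland held 1399 ± 516 CPM (SD, n = 18; range 407 to 2590) and liver 1220.1 ± 806 CPM (SD, n = 18; range 784 to 4368). Each of the 18 rumen libraries lay above every library of the other tissues, and the mean in rumen was 5.52 times that in duodenum, 6.24 times that in jejunum, 39.4 times that in mammary gland and 45.2 times that in liver. Duodenum and jejunum overlapped, with a difference of means smaller than the larger SD, and so did mammary gland and liver, whereas no intestinal library overlapped with liver or mammary gland.

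miR-378c, the second member by abundance, kept the same order of tissue means, although by medians jejunum, at 355 CPM, lay above duodenum, at 344 CPM. It ranged from 1312 to 2954 CPM in rumen (mean 2116 ± 463, SD, n = 18), from 288 to 509 CPM in duodenum (mean 362 ± 59.3, SD, n = 18) and from 239 to 508 CPM in jejunum (mean 350.3 ± 68.2, SD, n = 18). The means in mammary gland and liver were 96.2 ± 37.6 and 61.2 ± 29.0 CPM (SD, n = 18 each). These last means differed by 1.57 times, which is less than the larger SD, and the values of 1 mammary gland library lay above all liver libraries. The ratio of rumen to duodenum was 5.84, close to that of miR-378, but the ratio of rumen to mammary gland was 21.99, lower than the 39.4 of miR-378.

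miR-378b was the least abundant member in each tissue. Its level ranged from 103 to 291 CPM in rumen, where the mean was 182 ± 49.99 (SD, n = 18), and the means were 48.8 ± 8.83 CPM in duodenum and 38.8 ± 11.5 CPM in jejunum (SD, n = 18 each). In liver and mammary gland it was near the limit of the depth, with 8.05 ± 3.74 and 7.13 ± 2.79 CPM (SD, n = 18 each), which rested on 7 to 131 reads per library in liver and 2 to 85 in mammary gland. The order of these last tissues depended on the summary, since the mean was higher in liver and the median was higher in mammary gland, at 7.33 against 6.95 CPM. Rumen again lay above every other library, by 3.74 times over duodenum and 25.5 times over mammary gland.

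**Figure D1:**
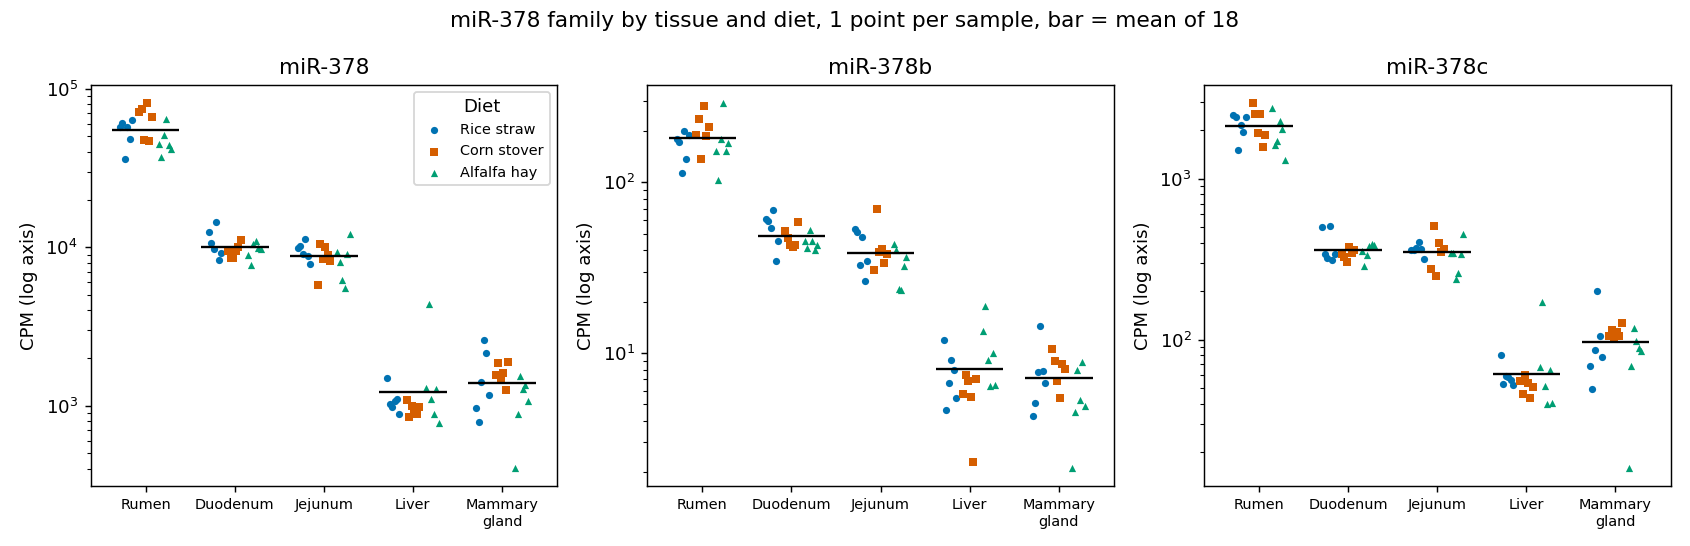
CPM (log axis) of miR-378, miR-378b and miR-378c in each of 90 samples by tissue, with 1 point per sample, colours and shapes for the 3 diets and a bar at the mean of 18. The rumen points lie above all others for each member, from 36043 CPM upward for miR-378, and duodenum and jejunum overlap, as do liver and mammary gland.

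The summed reads of the 3 members came to 5.75% ± 1.35 of a rumen library, 1.04% ± 0.168 in duodenum and 0.924% ± 0.183 in jejunum (SD, n = 18 each), as shares of mapped miRNA reads. In mammary gland the share was 0.150% ± 0.0553 and in liver 0.129% ± 0.0838 (SD, n = 18 each). miR-378 made up most of the family everywhere, from 91.7% to 96.9% of its reads in a library.

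The ratios between members were not constant across tissues. The level of miR-378c relative to miR-378 was 3.63% ± 0.282 in duodenum, 3.91% ± 0.749 in rumen and 3.999% ± 0.490 in jejunum (SD, n = 18 each), and these 3 tissues overlapped. It was 5.23% ± 0.563 in liver and 6.82% ± 1.11 in mammary gland (SD, n = 18 each). In mammary gland 15 of 18 libraries lay above the highest rumen library, and 16 lay above the highest liver library. The lowest mammary gland library, alfalfa hay replicate 1, had a ratio of 3.93% from 15 reads of miR-378c, and without it the mean was 6.99% ± 0.865 (SD, n = 17).

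The ratio of miR-378b to miR-378 followed another order, with its lowest mean in the tissue where both members were highest. It was 0.331% ± 0.0497 in rumen, 0.439% ± 0.0899 in jejunum, 0.489% ± 0.0522 in duodenum, 0.518% ± 0.103 in mammary gland and 0.692% ± 0.186 in liver (SD, n = 18 each). All 18 duodenum libraries lay above the mean of rumen and 12 of them above its highest library, 0.452%. Neighbours in this order between jejunum and mammary gland differed by less than the larger SD, and so did mammary gland and liver. Relative to miR-378c, miR-378b stood at a mean of 13.6% in duodenum, 13.3% in liver, 11.1% in jejunum, 8.81% in rumen and 7.81% in mammary gland. These are ratios of reads in 1 library, which do not depend on the library total but can differ from ratios of molecules.

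Counting error accounted for different parts of the spread of these ratios. The SD of log2(miR-378c / miR-378) over rumen libraries was 0.26, which was 15.8 times the SD that the read numbers alone would give. In the other tissues this quotient lay between 1.59 in liver and 5.82 in jejunum. For log2(miR-378b / miR-378) it was 3.80 in rumen and 0.848 in mammary gland, where the spread of the ratio was thus within counting error over all libraries. That counting error is largely set by 1 library, alfalfa hay replicate 1 with 2 reads of miR-378b. The quotient was not computed without it.

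**Figure D2:**
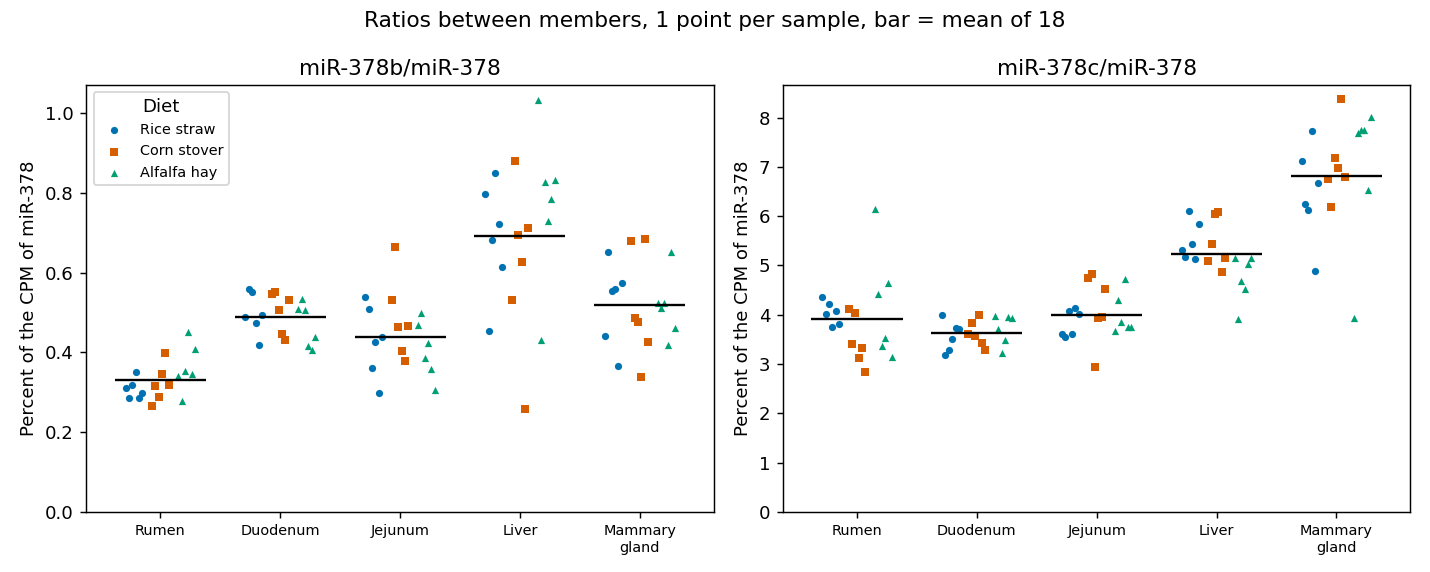
Reads of miR-378b and of miR-378c as percent of those of miR-378 in each of 90 samples by tissue, with 1 point per sample, colours and shapes for the 3 diets and a bar at the mean of 18. For miR-378b the rumen has the lowest mean, 0.331%, and for miR-378c the mammary gland the highest, 6.82%.

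Within rumen the level of miR-378 spanned 2.25-fold, with a coefficient of variation of 23.8%, against 16.2% in duodenum and 19.98% in jejunum. On the log2 scale the SD was 0.34, and counting error was far smaller, at an SD of 0.0031. The spread was not unusual for rumen, since 34.5% of the other 235 miRNAs with a mean of at least 10 CPM had a smaller SD of log2(CPM + 1). In liver and mammary gland the spread of miR-378 was wider, 5.57-fold and 6.36-fold, and turned on single libraries at the ends. Without liver alfalfa hay replicate 2 the liver mean was 1035 ± 187 CPM (SD, n = 17) with a highest library of 1503, and without mammary gland alfalfa hay replicate 1 the mammary gland mean was 1458 ± 467 CPM (SD, n = 17). Both settings were chosen after seeing the data.

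By diet, rumen miR-378 ranged from 47004 to 81148 CPM under corn stover, with a median of 68904. It ranged from 36043 to 63615 CPM under rice straw, with a median of 57437, and from 36853 to 64501 CPM under alfalfa hay, with a median of 44382. The groups overlapped, although 4 of 6 corn stover libraries lay above the highest library of the other diets. The means were 64617 ± 14271, 53847 ± 10163 and 47126 ± 9657 CPM for corn stover, rice straw and alfalfa hay (SD, n = 6 each). This difference did not pass the limma F test over diets on log2(CPM + 1) (adjusted p = 0.245). The estimated difference was largest between alfalfa hay and corn stover, where miR-378 was lower by 0.45 under alfalfa hay on the log2 scale (log2 fold change -0.45, SE 0.17, 95% interval -0.81 to -0.09, not adjusted over miRNAs). This contrast was picked as the largest although the F test was not passed, so its interval is a description and not a test.

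In the same tissue miR-378b ranged from 137 to 280 CPM under corn stover, from 114 to 201 CPM under rice straw and from 103 to 291 CPM under alfalfa hay. miR-378c ranged from 1566 to 2954 CPM under corn stover, from 1518 to 2506 CPM under rice straw and from 1312 to 2741 CPM under alfalfa hay. Their diet groups overlapped, and neither passed the limma F test (adjusted p = 0.598 for miR-378b and 0.739 for miR-378c).

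**Figure D3:**
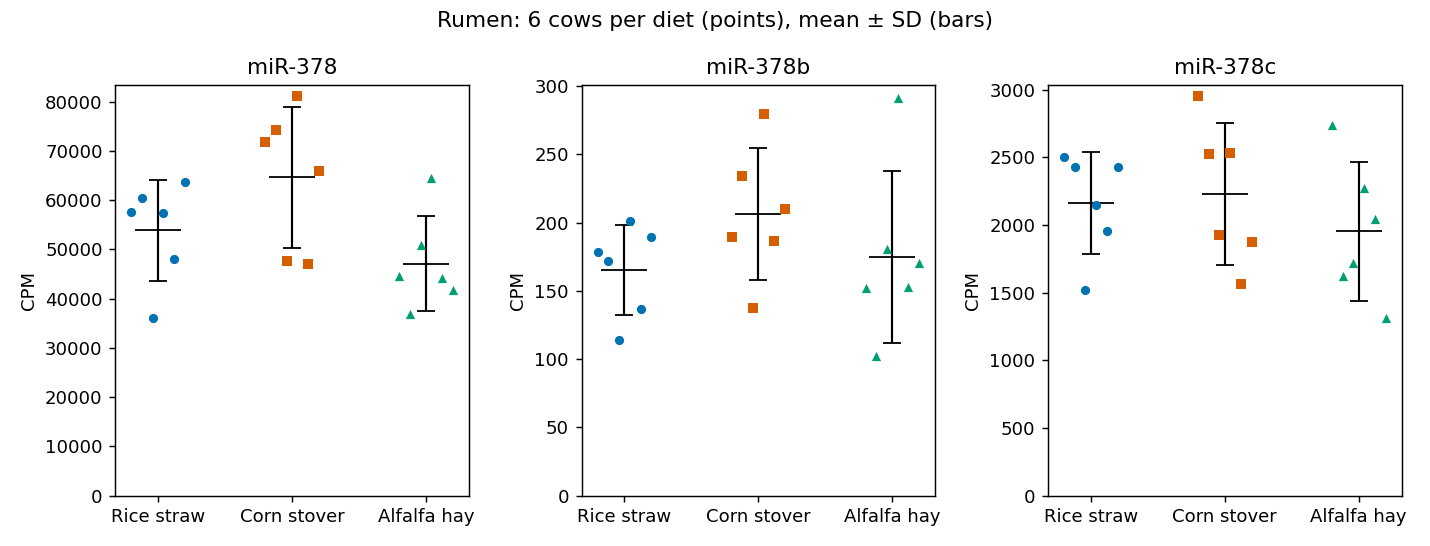
CPM of the 3 members in rumen by diet, with 1 point for each of 6 cows and the mean ± SD. For miR-378, 4 corn stover points lie above 64501 CPM, the highest value of the other diets, and the remaining points overlap across diets.

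Across the 5 tissues none of the 15 tests of a member in a tissue passed the limma F test over diets at an adjusted p of 0.05, and 1 of the 15 had an unadjusted p below that value. Over all miRNAs tested, the same test called 23.8% in jejunum, 3.72% in mammary gland, 1.49% in rumen, and 0% in both duodenum and liver. In duodenum 36 and in liver 17 miRNAs had an unadjusted p below 0.05, and edgeR called 0 in each of these tissues while DESeq2 called 0 in duodenum and 2 in liver. On the reads recovered from the CPM, the edgeR quasi-likelihood test called none of the 15 and DESeq2 called 1. The call was in mammary gland, where DESeq2 called 62 of 323 miRNAs and edgeR 26. Each tool gave 4 unadjusted p-values below 0.05 for members, 3 in mammary gland and 1 in liver. Over all miRNAs, edgeR and DESeq2 gave such a p-value for 91 and 106 of 323 in mammary gland. In liver they gave it for 25 and 27 of 326. In simulated data with a log2 fold change of 1 in 60 miRNAs, the limma test found 12 of them in mammary gland, 31 in liver, 37 in rumen, 51 in duodenum and 54 in jejunum, so it had the least power in mammary gland.

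In the intestine the diet groups of each member overlapped. miR-378 had a mean of 10838 ± 2312 CPM under rice straw, 9513 ± 969.6 CPM under corn stover and 9631 ± 1145 CPM under alfalfa hay in duodenum (SD, n = 6 each). In jejunum its means were 9513 ± 1167 CPM under rice straw, 8650.4 ± 1675 CPM under corn stover and 8378 ± 2368 CPM under alfalfa hay (SD, n = 6 each). The diet means of all 3 members lay within 0.24 on the log2 scale in duodenum and within 0.32 in jejunum. In jejunum, where the test called the highest share of miRNAs, the lowest adjusted p of a member was 0.433 (limma F test).

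In liver miR-378b was the member with the unadjusted p below 0.05 (adjusted p = 0.853, limma F test). It ranged from 6.42 to 18.8 CPM under alfalfa hay, from 4.63 to 11.97 CPM under rice straw and from 2.30 to 7.43 CPM under corn stover, and 2 alfalfa hay libraries lay above all others. miR-378 ranged from 784 to 4368 CPM under alfalfa hay, from 892 to 1503 CPM under rice straw and from 843 to 1087 CPM under corn stover (adjusted p = 0.895, limma F test). miR-378c had an adjusted p of 0.911 in the same test. Without the liver library of alfalfa hay replicate 2, the adjusted p of the members in liver lay between 0.738 and 0.897.

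In mammary gland miR-378 ranged from 1255 to 1879 CPM under corn stover, from 786 to 2590 CPM under rice straw and from 407 to 1532 CPM under alfalfa hay. The corn stover range lay inside the rice straw range, and the limma F test over diets was not passed (adjusted p = 0.346). The corn stover libraries stood close together for miR-378c, with a coefficient of variation of 8.07% against 54.6% under rice straw and 44.3% under alfalfa hay. In mammary gland the call depended on the fit. miR-378 passed by DESeq2 on recovered reads (adjusted p = 0.0241), which called 62 of 323 miRNAs in mammary gland. With miR-378c, it also passed in the limma fit of all 15 groups together (adjusted p = 0.0383 and 0.0499). In that fit all tissues share 1 estimate of the spread, and 159 of 289 miRNAs were called in mammary gland. Without alfalfa hay replicate 1, the library with the fewest reads, the adjusted p of the 3 members in the limma F test lay between 0.595 and 0.732.

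**Figure D4:**
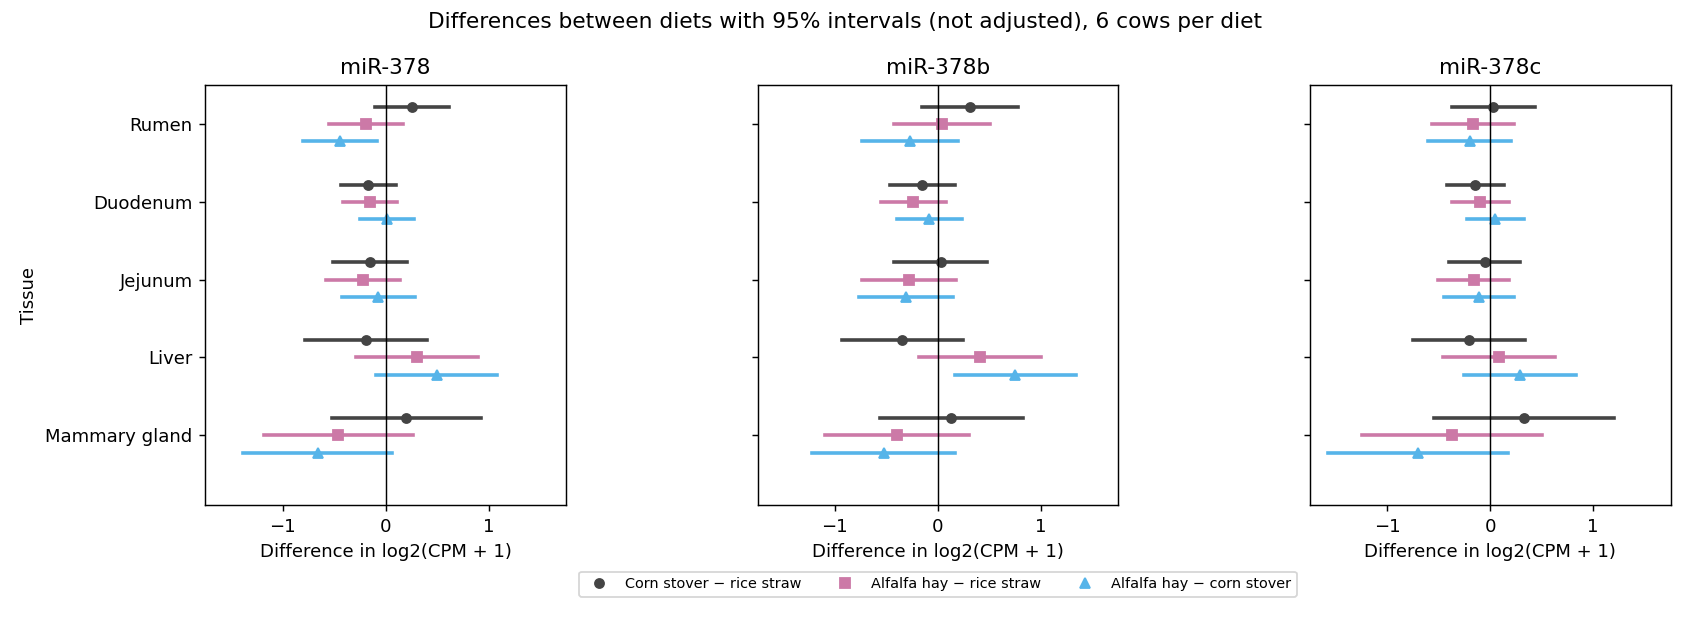
Differences between diets in log2(CPM + 1) for the 3 members in each tissue, with points at the limma estimate from 6 cows per diet and lines for the 95% interval, not adjusted. For miR-378 in rumen the line of alfalfa hay against corn stover runs from -0.81 to -0.09, and for miR-378b in liver from 0.16 to 1.34. Neither passed the limma F test over diets after adjustment, and the widest lines are those of liver and mammary gland.

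Whether the diet differences of a member differed between tissues was asked with the interaction of tissue and diet over all 90 samples. The limma test gave an adjusted p of 0.125 for miR-378, 0.0564 for miR-378b and 0.489 for miR-378c, so none of the 3 was called, against 45.7% of the 289 miRNAs tested. Before adjustment, 1 member, miR-378b, was below 0.05. This outcome depended on the scaling, since miR-378b passed after trimmed-mean scaling (adjusted p = 0.0157), after upper-quartile scaling (adjusted p = 0.0150) and with a pseudocount of 0.1 CPM (adjusted p = 0.0461). miR-378 passed after upper-quartile scaling (adjusted p = 0.0440), and both members passed with edgeR on recovered reads (adjusted p = 0.00457 for miR-378 and 0.00965 for miR-378b). Of the 289 miRNAs, 99 were called after trimmed-mean scaling and 94 after upper-quartile scaling. With the pseudocount of 0.1 CPM 131 were called, and with edgeR 109. With a term for each number within a diet, taken as the cow, none of the 3 passed the limma test. The adjusted p was then 0.156 for miR-378, 0.0590 for miR-378b and 0.525 for miR-378c.

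The ratios between members were compared between diets with exact permutation tests over all 2858856 divisions of the 18 libraries of a tissue, for 10 combinations of ratio and tissue. None passed after adjustment. The lowest p was that of miR-378c to miR-378 in liver (exact permutation test, p = 0.0164, adjusted p = 0.164), where the mean ratio was 4.74% ± 0.485 under alfalfa hay, 5.44% ± 0.511 under corn stover and 5.50% ± 0.392 under rice straw (SD, n = 6 each). In rumen the ratio of miR-378c to miR-378 ranged from 3.14% to 6.14% under alfalfa hay, from 2.84% to 4.11% under corn stover and from 3.75% to 4.35% under rice straw (adjusted p = 0.625, exact permutation test). The lowest and the highest rumen library, corn stover replicate 6 and alfalfa hay replicate 1, thus differed by more than the whole range of the rice straw libraries.

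Most pairs of members varied together between the cows of a tissue. Over 18 libraries the correlation of log2 CPM was computed for 15 combinations of member pair and tissue. Pearson's r passed the permutation test after adjustment in 14 of them and Spearman's rho in 13. The share of other miRNA pairs that would pass was not computed, so these counts do not set the family apart from other miRNAs. In rumen, miR-378 and miR-378b had r = 0.85 (rho = 0.85, permutation p = 3e-05 for both, adjusted p = 0.0001 for r), and r was 0.78 without the 2 libraries farthest from the median. Within rice straw, corn stover and alfalfa hay the r of this pair was 0.93, 0.82 and 0.95.

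For miR-378 and miR-378c in rumen r was 0.71 (rho = 0.68, permutation p = 0.00114 and 0.00264, adjusted p = 0.0019 for r), and 0.65 without the 2 farthest libraries. This relation was 0.96 within rice straw and 0.81 within corn stover but 0.43 within alfalfa hay. miR-378b and miR-378c did not pass in rumen (r = 0.45, rho = 0.45, permutation p = 0.0606 and 0.0654, adjusted p = 0.0606 for r). In duodenum the r of 0.55 between miR-378b and miR-378c rested on single libraries (permutation p = 0.0184, adjusted p = 0.0197; rho = 0.26, permutation p = 0.292), since it was 0.06 without the 2 farthest.

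In liver and mammary gland miR-378 and miR-378c had the highest r of all, 0.96 and 0.94 (rho = 0.80 and 0.92), and p = 1e-05 for both r, the smallest that the permutations can give (adjusted p = 5e-05). Without the 2 farthest libraries r was 0.82 and 0.88. Within corn stover, where the mammary gland libraries spread little, miR-378b correlated with miR-378 at r = 0.04 in mammary gland, against 0.89 within rice straw and 0.96 within alfalfa hay. CPM values of 1 library share its total and, as stated, possibly reads.

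**Figure D5:**
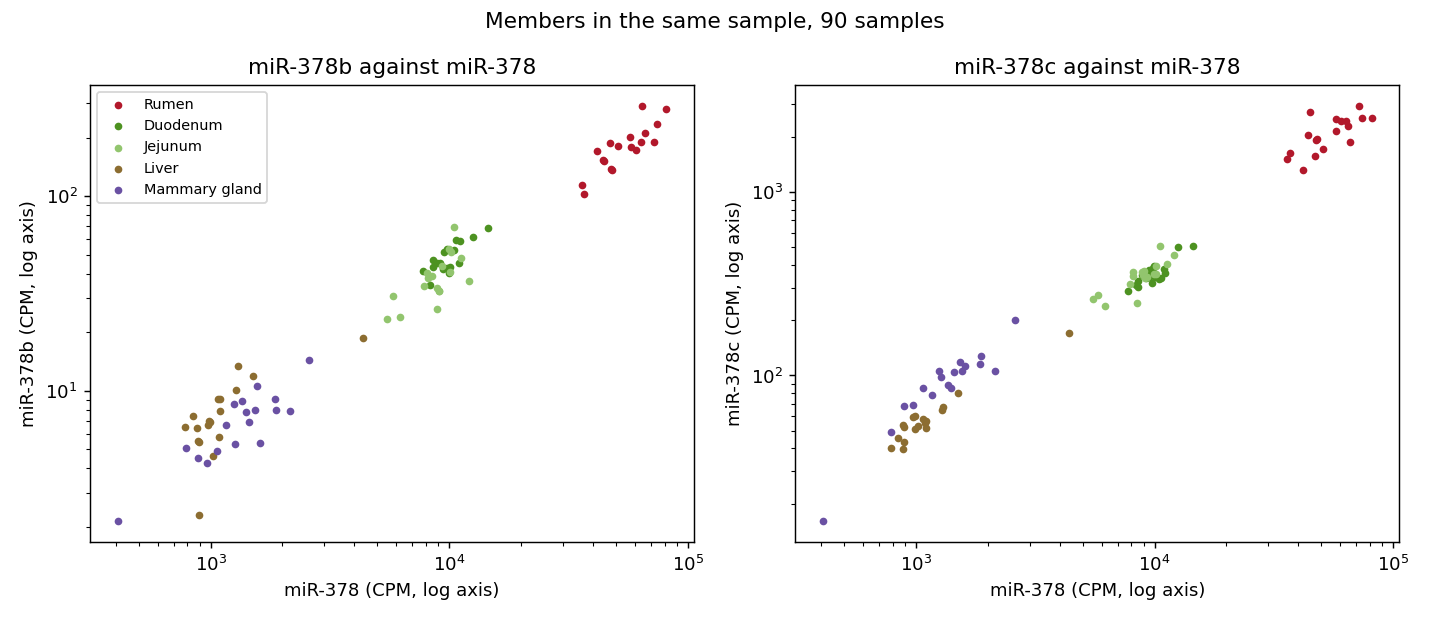
CPM of miR-378b (left) and miR-378c (right) against CPM of miR-378 in the same library, both on log axes, with 1 point for each of 90 samples coloured by tissue. The rumen libraries stand apart at the upper right in both panels, and within rumen the points of miR-378b follow miR-378 with r = 0.85 and those of miR-378c with r = 0.71.

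The rumen level of miR-378 was set beside the depth of the libraries and the summed CPM of 7 marker lists, 8 relations in all, over 18 libraries. With mapped reads r was -0.24 (rho = -0.33, permutation p = 0.326 and 0.181, adjusted p = 0.652 for r). With the smooth muscle markers miR-143 and miR-145 it was -0.56 (rho = -0.54, permutation p = 0.0177 and 0.0236, adjusted p = 0.142 for r), and -0.37 without the 2 farthest libraries, and none of the 8 relations passed. For the lists of striated muscle, stratified epithelium, columnar epithelium, red blood cells and white blood cells r lay between -0.31 and 0.29 (adjusted p from 0.652 to 0.689 by permutation). The smooth muscle relation differed in sign between diets, at -0.87 within rice straw, -0.81 within corn stover and 0.56 within alfalfa hay. With the glandular epithelium list, the miRNAs named above for mammary gland, r was -0.02 over all libraries (rho = 0.10, permutation p = 0.95 and 0.699) but 0.99 within rice straw, 0.89 within corn stover and -0.41 within alfalfa hay. Over the 24 values within diets none passed an exact permutation test after adjustment (lowest p = 0.00417, adjusted p = 0.1), and the difference between diets was not tested.

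The design states that each cow gave all 5 tissues. miR-378 was therefore compared between same-numbered libraries of pairs of tissues, after subtracting the diet mean. In the 10 pairs r ranged from -0.30 for rumen with liver to 0.35 for rumen with duodenum (permutation p = 0.234 and 0.154, rho = -0.30 and 0.17), and none passed after adjustment (lowest adjusted p = 0.638 for r and 0.883 for rho). Over all miRNAs, same-numbered libraries of duodenum and jejunum deviated together most clearly, with a median r of 0.178 and 11 of 18 libraries correlating best with their own number. Whether a number names the same cow in every tissue was not given in the labels.

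Over all 90 samples the miRNAs whose log2(CPM + 1) was most like that of miR-378, out of 261 compared, were miR-378c (r = 0.99) and miR-378b (r = 0.99), followed by miR-6123 (0.93), miR-147 (0.92), miR-25 (0.91), miR-15b (0.91) and miR-93 (0.89). miR-147, which is induced in macrophages by inflammatory signals, had 688 ± 131 CPM in rumen (SD, n = 18) and at most 48.5 CPM by mean in the other tissues. miR-25 and miR-93 come from one cluster with miR-106b, within an intron of MCM7. Within the 18 rumen libraries, the order was another one. Out of 235 compared, miR-378b (r = 0.85), miR-2336 (0.80) and miR-378c (0.71) came before miR-93 (0.66), miR-21-5p (0.66), miR-15b (0.63) and miR-30e-5p (0.59). miR-2336 was flat over the gut, with 53.4 ± 10.9 CPM in rumen, 52.8 ± 9.01 in duodenum and 53.4 ± 12.4 in jejunum (SD, n = 18 each). These values of r are descriptions over libraries that share their totals. Over all 90 samples r also takes in the differences between tissues on which the family was selected.

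Other miRNAs known for roles in lipid and energy metabolism were read from a list of 19 names, of which 18 or 19 were tested in a tissue. The limma F test over diets called 0 of 18 in rumen, 0 of 18 in duodenum and 0 of 19 in liver, and 3, 1 and 0 of them had an unadjusted p below 0.05. It called 3 of 18 in jejunum, where 23.8% of all miRNAs were called, and 1 of 18 in mammary gland, where 3.72% were. Unadjusted p-values below 0.05 numbered 5 of 18 in jejunum, against 137 of 336 miRNAs tested, and 11 of 18 in mammary gland, against 101 of 323. The median unadjusted p of the list was lower than that over all miRNAs tested in mammary gland, at 0.0265 against 0.173, and in duodenum, at 0.272 against 0.3799. It was higher in jejunum, at 0.110 against 0.0806, in rumen, at 0.370 against 0.263, and in liver, at 0.552 against 0.454. The list was chosen with earlier results of these data known. Its counts and medians are therefore a description, and a difference of the list from all miRNAs was not tested.

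In jejunum miR-210, which is induced by low oxygen, had 55.6 ± 14.4 CPM under corn stover and 35.9 ± 7.38 CPM under rice straw (SD, n = 6 each; adjusted p = 0.0181 for this contrast, limma). The jejunum also held less miR-29b, a regulator of collagen genes, under corn stover, at 146 ± 32.2 CPM against 231 ± 43.9 CPM under rice straw (SD, n = 6 each; adjusted p = 0.0068 for this contrast, limma). miR-26a had 56208 ± 11206 CPM under corn stover and 77074 ± 6525 CPM under rice straw (SD, n = 6 each; adjusted p = 0.0111 for this contrast, limma). In corn stover replicates 1, 2 and 6 the listed miRNAs summed to 999719, 999560 and 999779 CPM, lower than in any other jejunum library. Leaving out any 1 of these libraries gave the fewest calls in jejunum, 67 against 80 with all libraries. The F test calls of miR-210 and miR-29b held in all 18 fits that leave out a library. The part of these libraries together was not tested. The F test calls of miR-210 and miR-29b were lost in 1 of 11 other settings, the fit of all 15 groups (adjusted p = 0.0694 and 0.0948, limma), and that of miR-26a in 5 of 11, among them trimmed-mean scaling and edgeR (adjusted p up to 0.320), and without corn stover replicate 1 (adjusted p = 0.0579, limma).

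In mammary gland miR-29c had 3142 ± 435 CPM under corn stover and 1119 ± 668 CPM under rice straw (SD, n = 6 each; adjusted p = 0.0116 for this contrast, limma). Its F test call was close to the threshold (adjusted p = 0.0434, limma) and was lost in 14 of the 18 fits that leave out a library (adjusted p up to 0.130) and in 5 of 11 other settings, among them a pseudocount of 0.1 CPM, trimmed-mean scaling and edgeR (adjusted p up to 0.0789). From the marker lists miR-429, miR-144 and miR-499 were called in mammary gland with it (adjusted p = 0.0434 each, limma F test). They were 1 of 5 tested names of glandular epithelium, 1 of 3 of red blood cells and 1 of 4 of striated muscle. The other names of these lists were not called, and 3.72% of all miRNAs were. By the same test miR-155 of white blood cells was called in rumen, and miR-145 of smooth muscle and miR-1 of striated muscle in jejunum. The part of the markers in these values was not tested. The members of the miR-378 family were not called by this test in any of the tissues.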

How the data were processed

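Values of 90 samples were used, 18 per tissue and 6 per diet, grouped by the labels. The authors filtered reads with CASAVA 1.8, trimmed adaptors and aligned reads to bovine miRNA precursors with sRNAbench, allowing mismatches and multiple mappings, and the deposited values are CPM of all reads mapped to annotated miRNAs. In each library the CPM were whole multiples of a step, within 0.01 reads, and reads and totals were recovered from it. No pair of libraries of a group agreed within sampling noise, since the chi-square per degree of freedom was at least 50.6 over 225 pairs. Limits given in reads and the counting SD of ratios cover counting error only, whereas the 95% intervals of diet differences come from the spread between samples. A miRNA was tested in a tissue when its CPM was above 1 in more than 50% of the 18 libraries.

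Diets were compared with limma 3.58.1 (R 4.3.3, eBayes with trend) on log2(CPM + 1), Benjamini-Hochberg adjustment over all miRNAs tested and a threshold of 0.05. A fold change on this scale understates the change of miRNAs with low CPM. Ratios used two-sided exact permutation tests, and correlations 100000 permutations, with Python 3.11.15, numpy 2.4.6, scipy 1.17.1 and pandas 2.3.3. edgeR 4.0.16 and DESeq2 1.42.0 were run on recovered reads as alternatives, beside other pseudocounts (0.1 and 5 CPM), scalings and filters, a replicate block and each library left out. The fits were tested on simulated data. The members, marker lists and metabolism list were chosen with earlier results of these data known. miRNAs named beside the members are the 5 most correlated with miR-378 over all libraries and over rumen libraries, and listed miRNAs past a diet test. Mature sequences were not used here. The cattle tissues and fluids of the other studies of the paper were not analysed here.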

Additional observations from a re-analysis of the deposited data

Results flagged for a closer look

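In each group of 6 libraries, the gap between an extreme library and its neighbour was compared with the range of the group by Dixon's criterion. Over 75 groups of levels and ratios 9 passed. Chance alone passes about 1 in 20 groups when values are normally distributed and groups independent. These groups share libraries, and some libraries passed for more than 1 measure, so the 9 cannot be set against that rate.

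In the alfalfa hay group of liver, replicate 2 had 4368 CPM of miR-378, with the next library at 1301 CPM, and 171 CPM of miR-378c, with the next at 67.1 CPM. This library was also the highest of the 18 liver libraries for miR-205 and miR-31 together, at 2399 CPM against at most 957 CPM, and for the miR-200 and miR-429 group, at 1896 CPM against at most 737 CPM. It was the highest for the white blood cell list as well, at 10633 CPM against at most 7896 CPM, and the second highest for the red blood cell list, at 6580 CPM. Its miR-122 was 11014 CPM, inside the range of the other liver libraries. The part of these markers in the level of miR-378 was not tested. In the rice straw group of liver, replicate 1 had 1503 CPM of miR-378 and 79.8 CPM of miR-378c, with the next libraries at 1097 and 59.6 CPM, and it was the liver library with the fewest reads, 2004942. In the corn stover group of liver, replicate 5 had 2.30 CPM of miR-378b, from 7 reads, with the next library at 5.52 CPM.

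In mammary gland, rice straw replicate 4 had 14.5 CPM of miR-378b and 200.0 CPM of miR-378c, with the next libraries at 7.86 and 105 CPM. The same library was the highest of 18 for miR-205 and miR-31 together, at 9101 CPM, and the second lowest for the miR-200 and miR-429 group, at 11549 CPM, and the part of these markers was not tested. In alfalfa hay replicate 1 the ratio of miR-378c to miR-378 was 3.93%, with the next library at 6.52%. That library had 937556 reads, 15 of them of miR-378c.

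In jejunum, corn stover replicate 2 had 69.6 CPM of miR-378b, with the next library at 40.9 CPM. It was also the highest of the 18 jejunum libraries for miR-378c, at 508 CPM, for the columnar list, at 305331 CPM, and for the miR-200 and miR-429 group, at 10702 CPM. The same library was the lowest for the white blood cell list, at 18567 CPM against at least 19173 CPM. For miR-31 it was the second lowest, at 10.1 CPM against a median of 332 CPM in the others. The part of these markers was not tested.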

How the results depend on the processing

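Of the 15 diet tests of a member in a tissue, 3 results over the alternatives newly passed, all in mammary gland. These were miR-378 by DESeq2 (adjusted p = 0.0241) and in the limma fit of all 15 groups (adjusted p = 0.0383), and miR-378c in that fit (adjusted p = 0.0499). Over all miRNAs in mammary gland, DESeq2 called 62 of 323 and that fit 159 of 289. The other 160 values kept their side of the threshold, and so did the 270 values with a library left out (adjusted p between 0.160 and 0.989). In the interaction of tissue and diet, miR-378 passed after upper-quartile scaling (adjusted p = 0.0440) and with edgeR (0.00457), and miR-378b with a pseudocount of 0.1 CPM (0.0461), trimmed-mean scaling (0.0157), upper-quartile scaling (0.0150) and edgeR (0.00965). The cause was not tested, and these settings called from 94 to 131 of 289 miRNAs. With a block for the replicate number, the limma adjusted p of the diet test was 0.160 for miR-378 in rumen. In the interaction the block was each number within a diet, taken as the cow, and the limma adjusted p was 0.0590 for miR-378b. Neither block changed a call of a member. In 0 of 15 comparisons between diets did every same-numbered pair correlate above 0.1. The median r of a comparison ranged from -0.09 to 0.34, the highest in rumen between corn stover and rice straw. Pairs with other numbers were not compared, so these values cannot decide whether numbers pair the libraries of different diets.

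Counts over all miRNAs moved more. Over the 12 settings the diet test called 3 to 32 miRNAs in rumen, 0 in duodenum, 25 to 110 in jejunum, 0 to 2 in liver and 0 to 159 in mammary gland. The interaction called 94 to 137. With a library left out the diet test called 0 to 27 in rumen, with the most without alfalfa hay replicate 2, 0 to 1 in duodenum, 67 to 109 in jejunum, 0 to 3 in liver and 0 to 83 in mammary gland, with the most without alfalfa hay replicate 1. The depth limited miR-378b in liver and mammary gland, where it did not reach a mean of 10 CPM and had no value under that filter. By median in place of mean, the order turned between liver and mammary gland for miR-378b (ratio 0.948 in place of 1.13) and between duodenum and jejunum for miR-378c (0.968 in place of 1.03), tissues that overlapped in both cases. The ratio tests and the correlations between members kept their direction and side under the alternatives run for them.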
